A study of Drosophila melanogaster with 7 samples.

Results

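The regions described here are stretches of the Drosophila melanogaster autosomes where peaks of CLAMP binding were called in S2 cells and not in Kc cells. They were chosen by the peak calls themselves. Peaks of the 5 CLAMP libraries that shared at least 1 bp were merged, and a merged region was kept if S2 replicates 1 and 2 both had a peak in it, neither Kc replicate did, and no peak of either IgG library overlapped it. Regions on X, Y, 4 and the mitochondrial genome were left out, as were the ends of 3 arms next to the centromeres, namely 2L above 22.0 Mb, 3L above 23 Mb and 3R below 4.2 Mb. The rule kept 897 of the 19039 merged regions of the main arms, or 7.53% of the 11920 autosomal regions inside these limits and clear of IgG. Presence in S2 replicates 1 and 2 and absence from Kc are thus given by the choice and are described without a test. S2 replicate 3 did not have to hold a region. Without S2 replicate 1, so that 1 list fewer has to agree, the rule kept 2067 regions, and without S2 replicate 2 it kept 2547.

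The study mapped CLAMP in a male and a female cell line by CUT&RUN, a method for unfixed cells in which a nuclease tethered to an antibody cuts out the bound DNA for sequencing. S2 is the male and Kc the female line, both of embryonic origin, kept at 25 °C in Schneider's medium, and neither was given a treatment. There were 3 S2 libraries and 2 Kc libraries made with anti-CLAMP antibody, and 1 library with rabbit IgG from each line. Nothing in the labels says whether the replicates were separate cultures, each line is a single line, and so sex and line cannot be told apart.

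CLAMP carries zinc fingers that recognise GA-rich DNA. It is best known for bringing the male dosage compensation complex to the X chromosome, but it also binds at many autosomal sites in both sexes, where it helps to keep chromatin accessible. The study set the male line against the female one, and the regions here are the autosomal share of what was called in the male line alone.

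Coordinates are those of dm6. S2 replicate 3 stood apart from the other CLAMP libraries, since 32.7% of its peaks had a q-value of 0.0001 or less, against 53.7% to 76.4% in the other CLAMP lists, and its 5535 peaks were the fewest of these lists. In this share, in median fold (2.10) and in median peak width (245 bp) its list lay near that of Kc IgG, with 33.7%, 1.96 and 256 bp, whereas S2 IgG had 64.3%, 4.21 and 375 bp. Each result from replicate 3 rests on this weak list. The IgG lists used to set regions aside were of unequal length, with 1165 peaks for S2 IgG and 8615 for Kc IgG. The numbers of reads are not in the lists, so depth is unknown, and unequal depth and unequal binding cannot be told apart. Fold is the authors' own value for a peak over the background the caller estimated, and a strength was taken for each region as the mean of its fold percentiles within the lists of S2 replicates 1 and 2. Ranges after shares are 95% Wilson intervals and reflect counting error only.

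The S2-only regions were modest peaks with a short strong tail. Their fold had a median of 2.31 in S2 replicate 1, with a lowest value of 1.23 and a highest of 12.6. In S2 replicate 2 the median was 2.52, the lowest 1.30 and the highest 26.3. The 1516 autosomal regions held by S2 replicates 1 and 2 and both Kc libraries, called regions of both lines below, had higher medians of 4.53 and 4.04 in S2 replicates 1 and 2. The S2-only regions had a median width of 517 bp, narrower than the 1002 bp of regions of both lines and wider than the 448 bp of the 288 regions held by both Kc libraries and by neither S2 replicate 1 nor 2 (Kc-only). Of the 897, 33 reached a fold of 5 or more in both S2 replicates, and 601 (67.0%) had a q-value of 0.0001 or less in both.

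The strongest S2-only region lay at mid, which encodes a T-box transcription factor (2L 5460877 to 5461750). Its fold was 12.11 in S2 replicate 1 and 20.45 in replicate 2, replicate 3 had no peak there, and the nearest Kc peak was 57021 bp away. Both summits fell on the same base, 5461389. The next lay in intergenic DNA 9432 bp from Scp1, a calcium-binding protein gene (2R 2977484 to 2977909), with folds of 12.58, 14.33 and 7.40 in replicates 1 to 3. A region inside Tet, a TET family dioxygenase gene (3L 2866790 to 2867977), had folds of 11.04, 14.63 and 3.97. These last 2 regions were high in every S2 library, whereas the mid region was high in replicates 1 and 2 alone.

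The remaining 7 of the 10 strongest regions lay at a Hox gene, a channel gene, a zinc-finger gene, CG42238 and Npl4, and in intergenic DNA. The Hox gene Scr, which specifies the labial and first thoracic segments, held one at 3R 6848468 to 6849185 with folds of 8.40 and 12.12 in S2 replicates 1 and 2. Shab, a voltage-gated potassium channel gene, held one at 3L 2934585 to 2935963 with folds of 9.13 and 8.72. At chn, a zinc-finger repressor gene (2R 15120159 to 15121073), the folds were 9.14 and 8.12. None of these 3 had a peak in S2 replicate 3. The regions at CG42238 (2L 21041831 to 21042741, folds 8.78, 10.99 and 3.34) and at Npl4, a cofactor gene of the p97 segregase (3R 25624190 to 25624839, folds 9.89, 9.12 and 2.90), did have one. The last of the first 10 were intergenic, 2102 bp from CG31559 (folds 8.80 and 8.64) and 2041 bp from CtsL3, a cathepsin L family gene (folds 9.04 and 8.36), and neither had a peak in replicate 3. The nearest Kc peak lay 1177 bp from the region at chn and 1470 bp from that at CG42238. For the others of these 7 it lay 12642 to 150434 bp away.

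**Figure D1:**
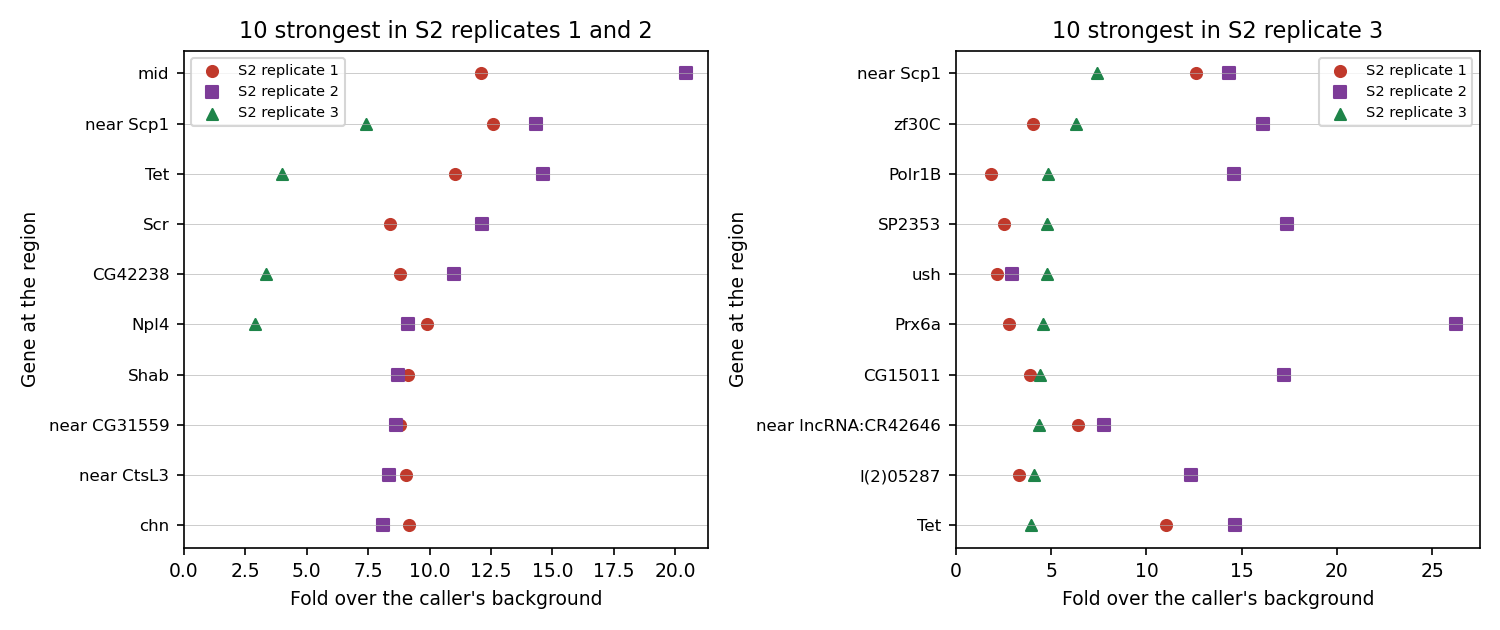
Fold over the caller's background (horizontal axis, linear) in each S2 CLAMP library for the 10 S2-only regions strongest in S2 replicates 1 and 2 (left panel) and the 10 strongest in S2 replicate 3 (right panel), each row being a region named by the gene at it or nearest to it. A missing triangle means no peak in replicate 3, as for mid, Scr, Shab and chn, and the right panel holds several regions, such as that of Prx6a, where replicate 2 lies far above replicate 1.

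S2 replicates 1 and 2 ranked the S2-only regions in a broadly similar order, with a wide scatter. Across the 897 regions the fold percentiles of the 2 lists had a Pearson's r of 0.526 and a Spearman's rho of 0.522, given as a description since the regions share their libraries. The percentile was higher in replicate 2 for 578 regions (64.4%). Both percentiles were at or above 75 for 78 regions, and both were under 25 for 82. The summits of the 2 replicates lay a median of 45 bp apart, and 624 of the 897 pairs (69.6%) were within 100 bp, against 69.9% in regions of both lines. Both classes were chosen for holding peaks of both replicates, and the width of a region limits how far its summits can part. Since regions of both lines were wider, the 2 shares are a description and do not compare how well the replicates matched.

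**Figure D2:**
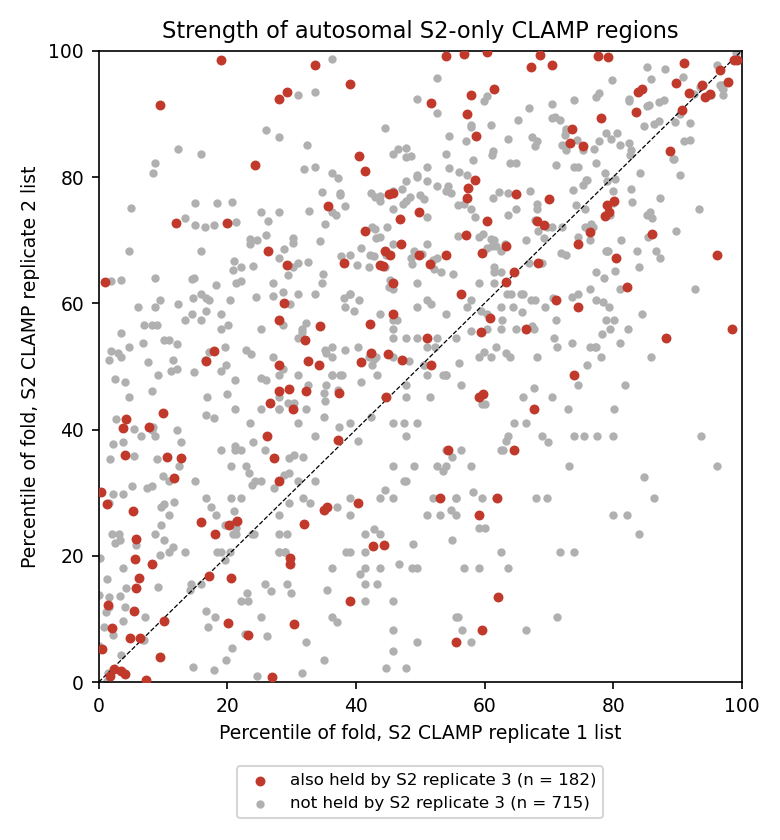
Each point is 1 of the 897 S2-only regions, placed by the percentile of its highest fold within the peak list of S2 replicate 1 (horizontal axis) and of S2 replicate 2 (vertical axis), with a dashed line of equality. The 182 regions with a peak in S2 replicate 3 (red) are spread over the whole field among the 715 without one (grey), and a group of red points lies along the upper edge, where replicate 2 is high and replicate 1 is not.

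S2 replicate 3, which the choice left free, had a peak in 182 of the 897 S2-only regions (20.3%, 17.8 to 23). It had a peak in 16 of the 288 Kc-only regions (5.56%, 3.45 to 8.83) and in 469 of the 1516 regions of both lines (30.9%, 28.7 to 33.3). Over all 10060 autosomal regions of the other 4 CLAMP libraries the share was 10.5%. The S2-only share therefore lay above that of Kc-only regions and of all regions and below that of regions of both lines, with intervals that do not overlap. Regions held by S2 replicate 1 alone were reached by replicate 3 in 4.81% of cases (3.85 to 6.0, n = 1538) and those held by S2 replicate 2 alone in 8.77% (7.18 to 10.7, n = 1015). Regions with both S2 replicates and 1 Kc library stood at 14.2% (11.7 to 17.1, n = 643). When every peak needed a q-value of at most 0.0001 the S2-only share was 12.7%, and without S2 replicate 2 it was 10.3%.

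Wider S2-only regions more often had a replicate 3 peak. Among S2-only regions replicate 3 had a peak in 7.44% of those under 400 bp (n = 215), 16.7% of those of 400 to under 700 bp (n = 431) and 37.5% of those of 700 bp and over (31.7 to 43.6, n = 251). In the same bands the Kc-only shares were 2.59%, 6.20% and 11.6% (5.07 to 24.5 in the widest band, n = 43). For regions of both lines they were 8.0%, 14.8% and 35.1% (32.5 to 37.8 in the widest band, n = 1214). At a like width the intervals of S2-only regions and regions of both lines thus overlapped, and the gap between them over all widths was accompanied by a difference in width. A replicate 3 peak can itself widen a region. With regions merged from the other 4 lists alone, a setting chosen after seeing the data, the S2-only shares were 13.5%, 17.3% and 36.4% by band those of regions of both lines 11.5%, 16.9% and 35.1%, and those of Kc-only regions 5.04%, 6.92% and 0.00% (0 of 38 in the widest band, interval up to 9.18). The climb with width thus held for S2-only regions and regions of both lines in this setting and was lost for Kc-only regions. Strength in replicates 1 and 2 went with the share much less: over 4 equal groups of the S2-only regions, from the weakest to the strongest, it was 22.3%, 15.6%, 18.3% and 24.9%.

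**Figure D3:**
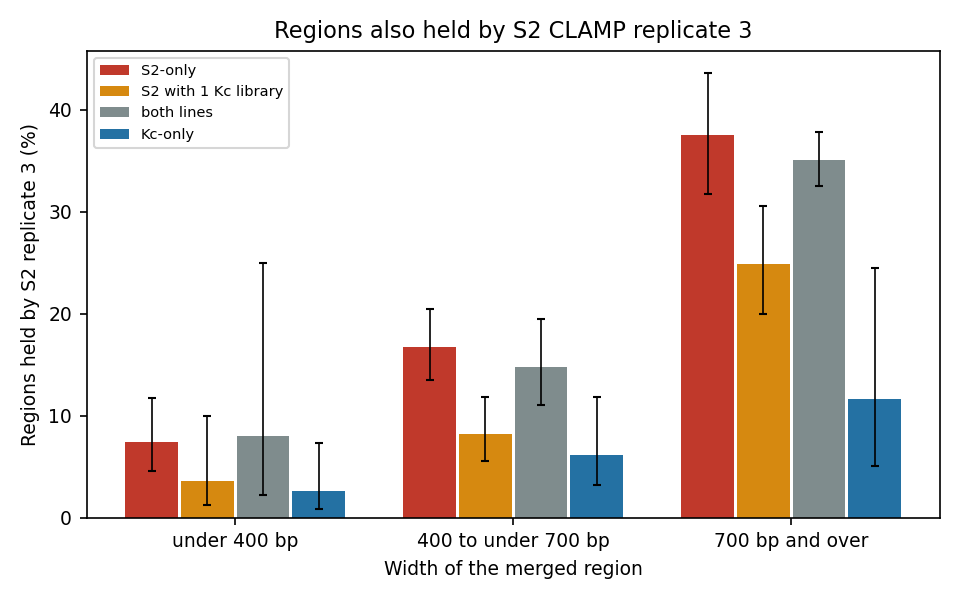
Share of autosomal regions with a peak in S2 replicate 3 (vertical axis, percent) by width of the merged region (horizontal axis) for S2-only regions, regions of S2 replicates 1 and 2 with 1 Kc library, regions of both lines and Kc-only regions, with 95% Wilson intervals as bars. The bars climb with width, for Kc-only regions only as far as 5 of 43 regions in the widest band and not when regions are merged without replicate 3, and the S2-only bars (7.44%, 16.7% and 37.5%) stand close to those of both lines and above those of Kc-only regions.

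S2-only regions in the part of 2R next to the centromere had a replicate 3 peak more often than elsewhere. The rule set no limit on this arm, and 61 of the 897 S2-only regions lay below 6.0 Mb on 2R, a boundary chosen after seeing the data. Replicate 3 had a peak in 43 of these 61 (70.5%, 58.1 to 80.4), against 25 of the 185 S2-only regions on the rest of 2R (13.5%, 9.32 to 19.2). Of the 9 Kc-only regions there, 1 had a replicate 3 peak, and of the 13 regions of both lines 8 did. Of the 16 regions there with both S2 replicates and 1 Kc library 2 did (12.5%), against 14.2% of such regions elsewhere. Overlapping no gene were 41 of the 61 S2-only regions (67.2%, 54.7 to 77.7). Without this stretch the replicate 3 share was 16.6% of 836 S2-only regions (14.3 to 19.3), 5.38% of 279 Kc-only regions (3.28 to 8.68) and 30.7% of 1503 regions of both lines (28.4 to 33.1), so the order of the classes was kept. The stretch from 2 to 3 Mb held 20 S2-only regions among 98 regions of all classes and 7 genes, and 17 of the 20 had a peak in replicate 3. The large gene CG17684 (2R 1866080 to 2262115) held 6 S2-only regions, 5 of them with a replicate 3 peak, with folds from 1.33 to 2.93 in replicate 1 and from 1.47 to 2.81 in replicate 2.

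The S2-only regions strongest in replicate 3 were mostly of 2 kinds. The regions near Scp1, at Tet and 11627 bp from lncRNA:CR42646 (2R 5378984 to 5380020, folds 6.41, 7.79 and 4.39) were high in all 3 libraries. Those near Scp1 and lncRNA:CR42646 lie in the stretch of 2R below 6.0 Mb described above. At zf30C, a zinc-finger gene (2L 9757982 to 9759207), the folds were 4.06, 16.14 and 6.33 in replicates 1 to 3. At Polr1B, a subunit of RNA polymerase I (2L 403809 to 404676), they were 1.85, 14.61 and 4.85. The region of SP2353 and CG8405 (2R 16047065 to 16047857) gave 2.55, 17.36 and 4.79, and that of Prx6a, a peroxiredoxin gene, and its neighbour Sbat (2L 2878180 to 2878530) gave 2.79, 26.27 and 4.57. In these 4 regions the fold was far higher in replicate 2 than in replicate 1, where only that of Polr1B lay below the median of all S2-only regions. CG15011 with CG1309 (3L 4258963 to 4259676, folds 3.87, 17.20 and 4.41) and the region of CG9257 and its neighbours (2L 21102208 to 21102941, folds 3.31, 12.34 and 4.10) followed the same order. At ush, a cofactor of GATA factors in blood cell development, a region at 2L 531551 to 531925 was instead highest in replicate 3, with folds of 2.16, 2.96 and 4.79.

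The high folds in replicate 2 led to a split made after these regions had been seen. In 19 of the 897 S2-only regions the fold in replicate 2 was at least 3 times that in replicate 1. Of these 19, 18 (94.7%) lay within 500 bp of the end of a gene, against 34.9% of the 875 S2-only regions whose folds in the 2 replicates were within 3 times of each other. Replicate 3 had a peak in 14 of the 19, but 6 of the 14 are among its 10 strongest regions described above, which prompted the split, so this count restates in part how the group was found. Of the other 13, replicate 3 had a peak in 8. The opposite imbalance, replicate 1 at least 3 times replicate 2, was found at 3 regions, all at gene ends. Regions of both lines held 11 with the same imbalance towards replicate 2, of which 9 had a replicate 3 peak and 10 lay at a gene end, so such regions also occurred outside the S2-only class. A difference between libraries and a difference between sites cannot be told apart here. The group also held disp, which encodes the transporter that releases Hedgehog from cells (3R 5856150 to 5856829, folds 2.13 and 15.25, no replicate 3 peak).

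Chromosome arm 2L held a larger share of the S2-only regions than of Kc-only regions and of regions of both lines. Of the 897, 248 lay on 2L (27.6%, 24.8 to 30.7), against 41 of the 288 Kc-only regions (14.2%, 10.7 to 18.7), 19.5% of regions of both lines (17.5 to 21.5) and 21.6% of all autosomal regions clear of IgG. The interval overlapped those of the other S2 classes, with 24.7% for regions of S2 replicate 1 alone (22.6 to 26.9), 23.6% for S2 replicate 2 alone (21.1 to 26.4) and 22.1% for both S2 replicates with 1 Kc library (19 to 25.5). Arm 2R held 27.4%, 3L 20.7% and 3R 24.2% of the S2-only regions, against 28.8%, 22.6% and 27.0% of all regions. With 2R below 6.0 Mb left out, 2L held 29.7% of S2-only and 14.7% of Kc-only regions. Copy number along the arms was not measured in these files, and its part in the arm shares was not tested. In windows of 1 Mb the S2-only regions numbered a median of 8, and only 1 of the 100 windows had none (3L 13 to 14 Mb, with 37 regions of all classes). The first megabase of 3L held 28 among 260 regions, and 2L from 8 to 9 Mb and from 9 to 10 Mb held 26 each, among 245 and 154 regions. The last of these windows, with 16.9%, lay above the 7.53% of all autosomal regions, as did the other 2 with 10.8% (3L) and 10.6%. They are named for their counts and were not the windows with the highest shares. Higher shares lay in windows with fewer regions, such as 2R from 25 to 26 Mb (11 of 37, 29.7%) and 3R from 6 to 7 Mb (12 of 58, 20.7%).

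**Figure D4:**
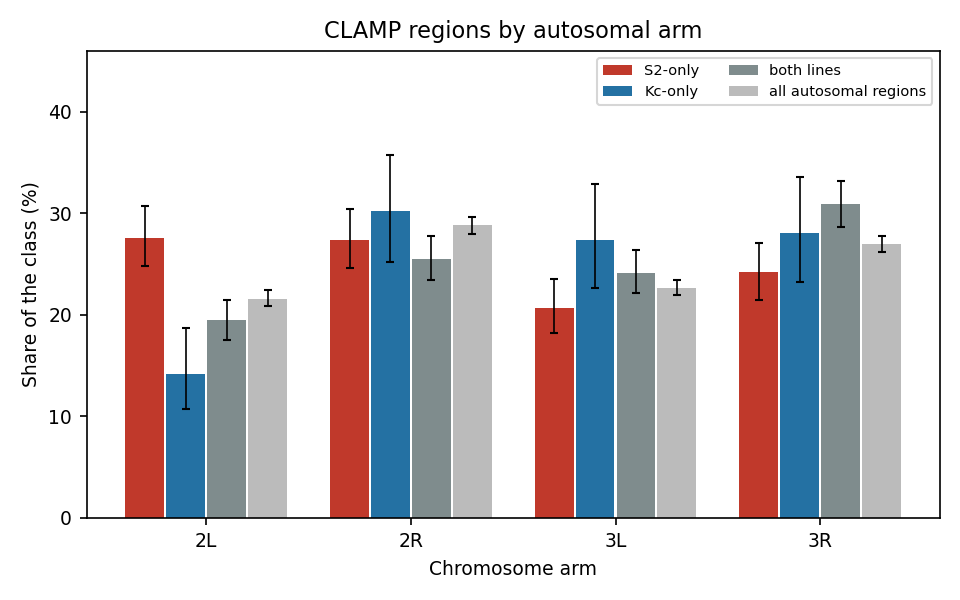
Share of each class of autosomal CLAMP regions on the 4 large autosomal arms (vertical axis, percent; horizontal axis, arm) for S2-only, Kc-only, both lines and all autosomal regions clear of IgG, with 95% Wilson intervals as bars. The S2-only bar stands above the others on 2L (27.6%), where the Kc-only bar is the lowest (14.2%), and the intervals of S2-only and Kc-only regions overlap on 2R, 3L and 3R.

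S2-only regions lay at gene ends about as often as Kc-only regions and less often than regions of both lines by their intervals. A gene end lay within 500 bp of 326 of the 897 (36.3%, 33.3 to 39.5), against 37.8% of Kc-only regions (32.4 to 43.6), 52.2% of regions of both lines (49.7 to 54.7) and 41.1% of all autosomal regions. Judged by the summit alone, which takes out the width of the region, the gene-end share was 32.7% for S2-only regions, 32.6% for Kc-only regions, 38.8% for regions of both lines and 35.4% for all. No gene was overlapped by 194 S2-only regions (21.6%, 19.1 to 24.4), against 18.1% of Kc-only regions (14.0 to 22.9), 8.64% of regions of both lines (7.33 to 10.2) and 19% of all. By the summit the shares outside genes were 31.8% for S2-only regions (28.8 to 34.9), 22.9% for Kc-only regions (18.4 to 28.1), 22.6% for regions of both lines (20.5 to 24.7) and 25.9% for all. High shares were not particular to S2-only regions. The summit share was 39.5% for S2 replicate 2 alone (36.5 to 42.5) and 29.6% for S2 replicate 1 alone (27.4 to 32.0). It was 25.7% for both S2 replicates with 1 Kc library (22.4 to 29.2). A gene end lay within 500 bp of 24.5% of regions of S2 replicate 2 alone and 62.6% of those of S2 replicate 1 alone. Summit shares are not given without 2R below 6.0 Mb. With 2R below 6.0 Mb left out, the share overlapping no gene was 18.3% for S2-only regions, 16.5% for Kc-only regions and 8.45% for regions of both lines. The gene table gives no strand, so gene starts and gene ends were not told apart. Replicate 3 had a peak in 15.0% of the S2-only regions at gene ends (n = 326), 20.1% of those inside genes (n = 413) and 31.6% of those in intergenic DNA away from ends (n = 158). This split includes 2R below 6.0 Mb, where 41 of 61 S2-only regions overlapped no gene and 43 of the 61 had a replicate 3 peak. It was not made without that stretch, so the higher intergenic share may not hold elsewhere.

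The nearest Kc CLAMP peak lay a median of 3780 bp from an S2-only region. It was within 500 bp for 123 regions (13.7%), within 5000 bp for 506 (56.4%) and within 10000 bp for 632 (70.5%). The nearest region of both lines lay at a median of 18278 bp. Regions of both lines contain Kc peaks and are fewer than these, so a greater median was given in advance. Such distances were taken for S2-only regions alone. Another S2-only region lay a median of 12200 bp away, and within 500 bp for 115 regions (12.8%).

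A gene was said to hold a region that overlapped it or came within 500 bp. Such genes numbered 831 of the 14712 autosomal genes (5.65%), and 739 of them were among the 11557 protein-coding genes (6.39%). Without S2 replicate 1 there were 1434 such genes, without S2 replicate 2 there were 2547 and without Kc replicate 2 there were 1334. Gene length moved strongly with this share. An S2-only region was held by 2.77% of protein-coding genes under 2 kb, 4.91% of those of 2 to 5 kb, 11.4% of those of 5 to 20 kb and 26.2% of those of 20 kb and over (204 of 778). The coding genes that held one had a median length of 6748 bp, against 2073 bp for all. Among tRNA genes 14 of 266 (5.26%) held one, through 9 regions. Of the 831 genes, 409 (49.2%) also held a Kc CLAMP peak elsewhere and 203 (24.4%) held a region of both lines, against 31.8% and 10.8% of all autosomal genes, while 422 held no Kc peak. Among genes of 20 kb and over, a Kc peak was held by 84.8% of those with an S2-only region and by 69.0% of all.

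Most of the 831 genes, 702, held 1 S2-only region, while 89 held 2 and 40 held at least 3. Svil, which encodes an actin-binding protein of the villin family (3L 2377655 to 2499226), held 7. Their folds ran from 1.80 to 4.04 in replicate 1 and from 1.69 to 3.86 in replicate 2, and 3 of the 7 had a replicate 3 peak. The Krüppel-like factor gene luna (2R 10977956 to 11116378) and klar, a nuclear positioning gene (3L 434083 to 540614), held 6 each, with replicate 3 peaks in 1 and 2 of them. The gene mtgo (2L 16545016 to 16663218) also held 6. At CG17839 (3L 14805136 to 14882224) all 4 regions had a replicate 3 peak and no Kc peak lay in the gene. At kibra, a Hippo pathway gene (3R 14697689 to 14724261), all 3 did, with replicate 3 folds of 1.78, 2.65 and 1.91. At hth, a homeobox gene that acts with the Hox proteins (3R 10507561 to 10639568), 1 of the 3 regions was strong, with folds of 5.39 and 11.09 in replicates 1 and 2 (3R 10535482 to 10536278), and none had a replicate 3 peak. The genes mim and CheB42c share their 4 regions, since one lies inside the other. Of the genes named here only CG17839 held no Kc peak. Svil, luna and klar also held regions of both lines and Kc-only regions. Regions of both lines lay at mtgo, kibra and hth too, and a Kc-only region at mim and CheB42c.

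Counts in lists of genes are set beside the 6.39% of all protein-coding genes and the 26.2% of those of 20 kb and over. The Hox genes were the list with the highest share, 5 of 8 holding an S2-only region, with a median length of 30.6 kb. Of the 5, 4 lay in the Antennapedia complex, which patterns the head and anterior thorax: lab, pb, Dfd and Scr. Besides the strong region inside it, Scr held one at 3R 6849828 to 6850351 with folds of 3.57 and 5.21 in S2 replicates 1 and 2. The folds were 2.70 and 5.72 at Dfd, 2.13 and 3.56 at lab and 1.51 and 1.88 at pb. Abd-B of the Bithorax complex held one with folds of 3.83 and 2.44 (3R 16934301 to 16934861). None of these 6 regions had a replicate 3 peak. While lab and pb held no Kc CLAMP peak at all, Scr and Abd-B also held regions of both lines and Dfd held a Kc peak. The region at pb was among the weakest calls and is given with the edges of the rule below. Antp, Ubx and abd-A held no S2-only region.

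Genes of the Hedgehog pathway followed with 5 of 9, none of the 5 being 20 kb or longer, and the list had a median length of 6.62 kb. Besides disp, regions were found at the receptor gene ptc (2R 8653358 to 8654054, folds 2.06 and 5.03 in S2 replicates 1 and 2), at smo, which encodes the signal transducer that Patched inhibits (2L 277308 to 277549, folds 3.55 and 2.12), and at cos, which encodes the kinesin-like scaffold of the pathway (2R 7387159 to 7387369, folds 2.41 and 2.80). Su(fu), an inhibitor of the pathway, had folds of 2.37 and 2.12. Only these regions of disp and ptc overlap the genes, and that of disp also overlaps ECSIT. Another region of ptc, at 2R 8665478 to 8665729 (folds 2.28 and 2.24), lies beyond its end. The regions of smo, cos and Su(fu) lie just outside these genes. That of smo lies in CG17078, that of cos overlaps Dhx15, and that of Su(fu) overlaps Arp1 and CG31347. No replicate 3 peak lay in any of these regions, and disp, smo and Su(fu) held no Kc peak. The ligand gene hh and the co-receptor genes dally, dlp and ihog held none.

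Axon guidance genes held S2-only regions in 9 of 19 cases, 8 of the 9 being among the 14 genes of 20 kb and over. The netrin receptor gene unc-5 held 3, one of them strong at 2R 15341441 to 15342551 with folds of 7.06 and 8.44 in replicates 1 and 2. Sema1a, a transmembrane semaphorin gene, held 5 with folds of 1.82 to 3.44 in replicate 1 and 1.74 to 5.38 in replicate 2. Sema2b, a secreted semaphorin gene, had 1 region within 500 bp, which partly overlaps its neighbour jtb, with folds of 6.72 and 2.76, and no Kc peak. Lar, a receptor phosphatase gene, had 1 with folds of 2.70, 7.72 and 2.56, and was the 1 gene of the 9 whose region replicate 3 also held.

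Blood cell genes held such regions in 7 of 22 cases (31.8%), 2 of the 7 being the only genes of 20 kb and over in the list. S2 cells are commonly described as macrophage-like, but whether this bears on these calls was not tested. Regions lay at gcm2, a glial and blood cell fate regulator (2L 9612863 to 9614685, folds 3.35 and 4.42 in replicates 1 and 2), at crq, a CD36 family scavenger receptor gene (2L 451759 to 453220, folds 2.49 and 3.00), at vkg, a collagen IV gene (folds 2.37 and 2.48), and 5 times at ush. The region of gcm2 lies outside that gene and partly overlaps its neighbour Trx2, and that of crq also overlaps shv. Neither gcm2 nor crq held a Kc peak, whereas vkg and ush did. Only at ush did replicate 3 have a peak, in 2 of its 5 regions.

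Other signalling lists held S2-only regions in 5 of 18 Notch genes, 4 of 15 Wnt genes, 2 of 6 JAK-STAT genes, 4 of 16 Toll and Imd genes, 3 of 13 BMP and activin genes and 2 of 15 EGFR and Ras genes. At numb, an inhibitor of Notch, a region at 2L 9449104 to 9449991 had folds of 6.48 and 5.84 in replicates 1 and 2. The nearest Kc peak lay 461 bp from it. A stronger region of numb, at 2L 9448207 to 9448850, had a peak in Kc replicate 2 and is given with the edges of the rule below. Axn, which encodes a scaffold of the complex that destroys Armadillo, shared a region with the ribosomal protein gene RpS28a (3R 30021925 to 30023068, folds 3.88 and 7.80), and neither held a Kc peak. Ptp61F, a phosphatase gene that restrains JAK-STAT signalling, held 4 regions, and Tl, the Toll receptor gene, 1 with folds of 3.74 and 2.44. The EcR gene of the ecdysone receptor held the strongest of the ecdysone list (4 of 23 genes), at 2R 6141213 to 6142096 with folds of 5.78 and 5.91, and the tRNA genes tRNA:Arg-ACG-1-1 and tRNA:Lys-CTT-1-1 lie at the same region. A Kc peak lay 682 bp from this region.

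Lists of chromatin regulators and of the sex-specific machinery held S2-only regions in 0% to 28.6% of their genes, against 6.39% of all protein-coding genes. Of the genes encoding GA-binding and Polycomb recruiter factors 2 of 7 (28.6%) held S2-only regions, namely psq and lola, both of 20 kb and over. Pipsqueak itself binds GA-rich DNA, and 1 of the 4 regions at psq was strong in all 3 libraries (2R 10592308 to 10593359, folds 7.19, 8.72 and 3.12). Trithorax group and remodelling genes held S2-only regions in 5 of 21 cases (23.8%), 4 of the 5 being of 20 kb and over. The strongest of these lay at skd, a Mediator subunit gene (folds 2.82 and 5.81). Polycomb group genes held S2-only regions in 1 of 14 cases (7.14%, Caf1-55) and insulator genes in 0 of 11. Of the 7 autosomal dosage compensation genes 1 (14.3%) held one, namely Unr, an RNA-binding regulator of msl-2 translation (3L 8441249 to 8441860, folds 2.32 and 2.52, no replicate 3 peak). Of 16 sex determination and m6A genes (6.25%) only fru did (3R 18479165 to 18479648, folds 1.65 and 2.54, no replicate 3 peak). The gene fru is longer than 20 kb and also held a Kc-only region and a region of both lines. Among segmentation and patterning factors 1 of 24 did (pnr, a GATA factor gene, folds 5.96 and 6.29), and among cell cycle genes 2 of 21. Ribosomal protein genes are short, with a median of 1.28 kb, and 8 of 73 (11%) held one, against 2.77% of all coding genes under 2 kb. Lists this short and of such unequal gene length were not compared by a test.

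**Figure D5:**
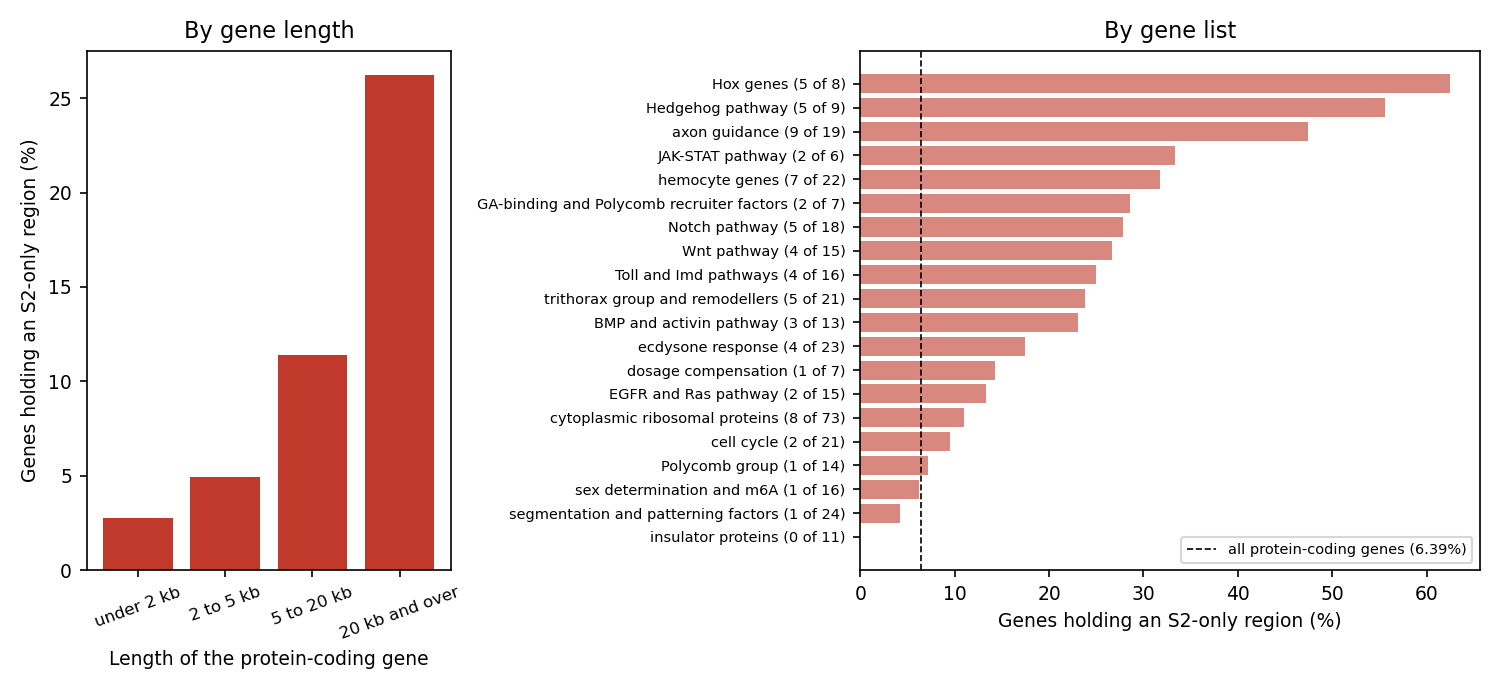
Share of genes that hold an S2-only region (percent), by length of the protein-coding gene (left panel, bars) and by gene list with the counts in brackets (right panel, bars; dashed line, 6.39% of all autosomal protein-coding genes). The share climbs from 2.77% of genes under 2 kb to 26.2% of genes of 20 kb and over, and Hox, Hedgehog and axon guidance genes head the lists.

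At the edges of the rule the calls were weak or close. The 5 S2-only regions with the lowest −log10 q-value in either replicate lay 7128 bp from lncRNA:CR44183 and at Pka-C1, Alg3, pb and Sema1b, where the lower of the 2 values was 0.62, 0.66, 0.66, 0.68 and 0.72. Just outside were regions with high folds in S2 that a peak of 1 Kc library kept out. At ss, a bHLH-PAS transcription factor gene (3R 16403361 to 16404160), the folds were 18.48, 24.24 and 2.90 in S2 replicates 1 to 3 and 4.27 in Kc replicate 2. At Cpsf6 they were 9.94 and 16.29 in S2 replicates 1 and 2 and 4.11 in Kc replicate 1, at Hip14 9.70 and 13.93 in S2 and 4.83 in Kc replicate 2, at numb 13.40, 10.23 and 3.26 in S2 and 2.51 in Kc replicate 2, and at lbe 8.72, 13.08 and 2.97 in S2 and 2.19 in Kc replicate 1. A further 73 regions met the rule but for an IgG peak, 46 with a peak of S2 IgG, 33 with a peak of Kc IgG and 6 with both, and replicate 3 had a peak in 78.1% of them.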

How the data were processed

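CUT&RUN was done with anti-CLAMP antibody in 5 libraries and rabbit IgG in 2. Per the submitters' processing notes, the tools were MACS2, Bowtie2, Trimmomatic and FastQC, with the build dm6. Parameters, duplicate removal and the control behind the calls are not given in the sources used here. Each library has its own list from the authors, which makes the calls per sample rather than pooled. Per the file layout, each deposited row gives a score (not used), the fold, which is the ratio of the summit's signal to the caller's background, the −log10 p-value and −log10 q-value, and the summit's offset (the other deposited column). The title of S2 replicate 3 and its list carry different internal numbers, and the library was taken by its title.

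Rows with 1 interval were joined, keeping the strongest summit and highest fold. Merging, region classes, gene overlaps and intervals were computed with Python 3.11.15, pandas 2.3.3, numpy 2.4.6 and scipy 1.17.1, and merging and overlaps were tested on simulated data. Genes came from a RefSeq table of Release 6 plus ISO1 MT, without strand or exons. Regions are not replicates, and replicate 3, the measure the choice left free, is 1 library, so no test over samples was made. The reads were PCR-amplified and no molecular identifiers are described. The members and the 20 gene lists were chosen with earlier results of these data known. Named genes are those at the 10 strongest regions in S2 replicates 1 and 2, at the 10 strongest in replicate 3, those with at least 3 regions, up to 4 per list by strength, and those at the edges of the rule. Where a count was small, further members (Su(fu), pb, the genes holding none) were named after their values were seen, as was the group with unequal folds. Genome sequence was not used here, so the planned share with GA repeats was not computed.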

Additional observations from a re-analysis of the deposited data

How the results depend on the processing

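No paired analysis was possible because the results are counts and shares of merged regions and come from no test. The number of S2-only regions stayed within 1.5 times of 897 under 10 of 13 alternatives. It was 182, in 155 genes, when replicate 3 also had to hold a region. Leaving out 1 CLAMP library each gave 911 to 2547 regions, 834 to 2547 genes, a replicate 3 share of 10.3% to 18.6%, 18.1% to 28.2% overlapping no gene and 30.3% to 52.0% at a gene end. Without S2 replicate 1 there were 2067 regions (13.9% held by replicate 3) and 1434 genes, without S2 replicate 2 there were 2547 of each (10.3%), and without Kc replicate 2 there were 1333 regions and 1334 genes. The replicate 3 share was 12.7% when peaks needed a q-value no higher than 0.0001, 24.6% with no region set aside for IgG and 16.6% with 2R below 6.0 Mb left out. The share overlapping no gene was 30.2% among regions held by replicate 3, 18.3% without 2R below 6.0 Mb and 31.8% by the summit. The gene-end share was 41.1% with lists of equal length, 26.9% among regions held by replicate 3, 32.7% by the summit, and 33.1% and 43.4% with ends taken within 250 and 1000 bp. The cause of these shifts was not tested. The settings on 2R, on summits and on 4 merged lists were chosen after seeing the data. The planned share with GA repeats was not run.

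The lists hold no read numbers, so unequal depth and unequal binding of the lines cannot be told apart. S2 replicates 1 and 2 shared 57.9% and 71.3% of their autosomal regions clear of IgG with each other, against 44.8% and 51.0% for the Kc replicates, and the part of this in the counts of 897 S2-only and 288 Kc-only regions was not tested.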
